A study of Mus musculus with 167 samples.

Results

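The genes described here are 29 mouse genes of cholesterol and fatty acid synthesis, followed through the conversion of embryonic fibroblasts towards dendritic cells. They were taken as the rows of the count table whose Ensembl identifiers carry the listed symbols, 29 of 57010 identifiers, and all 29 were counted highly enough to be tested in every comparison. They comprise 8 enzymes that lead from acetyl-CoA through mevalonate to squalene epoxide (Hmgcs1, Mvk, Pmvk, Mvd, Idi1, Fdps, Fdft1, Sqle), 9 that turn this into cholesterol (Lss, Cyp51, Tm7sf2, Msmo1, Nsdhl, Hsd17b7, Ebp, Sc5d, Dhcr7), 4 genes of sterol control and transport (Insig1, Srebf1, Srebf2, Stard4) and 8 of fatty acid synthesis, desaturation and elongation (Acly, Acaca, Fasn, Elovl6, Fads1, Fads2, Scd1, Scd2).

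As background, cells make cholesterol and unsaturated fatty acids under the control of the SREBP transcription factors, which Srebf1 and Srebf2 encode. SREBPs are made as membrane precursors of the endoplasmic reticulum, are held there by Insig proteins when sterols are plentiful, and move to the Golgi for cleavage when sterols run low. The freed factors bind sterol regulatory elements of sterol and fatty acid genes, usually next to sites for NF-Y, which binds CCAAT, and Sp1. When sterols accumulate, their oxidised forms activate LXR, which turns on the efflux transporters Abca1 and Abcg1 and the Srebf1 gene. In macrophages and dendritic cells this balance is known for its links to membrane supply, lipid loading and interferon signalling.

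The fibroblasts (MEFs) came from a pair of reporter lines. The C9a line was double homozygous for Clec9a(Cre/Cre) and Rosa26(tdTomato/tdTomato), so tdTomato (tdT) marks cells in which the Clec9a locus, a dendritic cell gene, has been active. The hCD2 line was heterozygous for hCD2(Cre/WT) and Rosa26 (YFP/WT), on a C57BL/6 background. C9a MEFs were transduced with lentivirus for PIB (Pu.1, Irf8 and Batf3), PIP (Pu.1, Irf4 and Prdm1) or SII (Spib, Irf8 and Ikzf2), and hCD2 MEFs with SII, and live cells were sorted on day 3, 6 or 9 for the reporter, for CD45 or for both, the last being called double positive here. Controls were reporter-negative, CD45-negative MEFs of each line without virus (C9a.MEF, n = 4; hCD2.MEF, n = 4), so that the lines' alleles are shared with their controls while transduction and culture are not. Freshly sorted wildtype spleen cells were cDC1 (n = 3) and cDC2 (n = 3), the conventional dendritic cells of type 1 and type 2, and pDC (n = 5), the plasmacytoid type. The ages of the animals and whether libraries came from separate cultures or animals are not given in the sources used here, so p-values measure the spread between these libraries, which may be technical. The cultures grew in medium with serum, a source of sterols and fatty acids, and the spleen cells were not cultured. Double positive groups held 3 to 5 libraries each.

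Bulk RNA libraries formed 41 groups, with a total of 1146927 to 21976374 counts each (median 10960122). Levels are CPM, counts scaled to 1000000 per library, and differences are log2 ratios (first-named group to second) with their standard error, from a fit that rescales libraries. A gene is said to be higher or lower, or to rise or fall, where edgeR's quasi-likelihood test gave an adjusted p under 0.05 over all genes and the change was at least 2-fold. On day 9 the double positive libraries carried leukocyte RNA: 9 leukocyte genes summed to 399 to 869 CPM against 2.46 to 4.55 CPM in MEFs, and 10 fibroblast genes to 706 to 8074 CPM against 14831 to 17948 CPM. Ptprc, which encodes the CD45 of the sort, was at 58.5 to 334 CPM in 44 of 46 double positive libraries and at 0 to 0.37 CPM in MEFs. It went against the label in the library labelled C9a.SII day 3 double positive replicate 2 (1.52 CPM), and in the library labelled PIP day 3 double positive replicate 3 it was low (14.1 CPM against 82.6 and 84.4 CPM), so the day 3 counts of both groups are given with and without them. The 3 libraries whose transduced factors went against the label were single-reporter sorts of day 3 or 6 and enter only the alternative fit over all 41 groups. Libraries that stood apart besides these were hCD2.SII day 9 double positive replicate 1, with 8074 CPM of fibroblast markers against 706 and 777 CPM in the others, C9a.SII day 9 replicate 1, with the fewest counts of all, and pDC replicate 1, with 1204 CPM of fibroblast markers against at most 105.6 CPM in other pDC. In bulk RNA, fewer cells of a type and less RNA per cell cannot be told apart, and markers of fibroblasts, dividing cells and other leukocytes are given beside the results because they moved with the groups.

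Promoter stretches of 5 members are shown because they include the only classic sterol element found (Hmgcs1), the genes that were higher in PIP cells by the widest margin (Insig1, Hsd17b7) and genes that were lower in at least 3 of 4 day 9 groups (Cyp51, Elovl6). They are RefSeq sequences of build GRCm38.p6, each of 200 bases before the gene, with bases inside the annotated gene left out. They lie at chr13:119690151-119690350 (Hmgcs1, plus strand), chr5:28071163-28071362 (Insig1, plus strand), chr1:169969242-169969441 (Hsd17b7, minus strand), chr5:4104747-4104946 (Cyp51, minus strand) and chr3:129532155-129532354 (Elovl6, plus strand). Capitals mark matches to the sterol element TCACNCCAC and to CCAAT on either strand (ATTGG on the other).
Hmgcs1: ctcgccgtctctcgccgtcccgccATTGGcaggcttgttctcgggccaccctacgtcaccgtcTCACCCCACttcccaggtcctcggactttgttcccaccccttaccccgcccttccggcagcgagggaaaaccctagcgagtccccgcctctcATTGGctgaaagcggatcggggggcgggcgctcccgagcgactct
Insig1: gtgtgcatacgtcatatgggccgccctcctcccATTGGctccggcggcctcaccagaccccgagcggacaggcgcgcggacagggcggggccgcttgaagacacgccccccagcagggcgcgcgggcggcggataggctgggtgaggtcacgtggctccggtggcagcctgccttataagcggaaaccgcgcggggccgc
Hsd17b7: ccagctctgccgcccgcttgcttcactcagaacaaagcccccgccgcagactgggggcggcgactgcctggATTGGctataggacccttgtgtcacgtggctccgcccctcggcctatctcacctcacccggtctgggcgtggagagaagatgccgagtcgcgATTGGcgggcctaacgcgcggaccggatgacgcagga
Cyp51: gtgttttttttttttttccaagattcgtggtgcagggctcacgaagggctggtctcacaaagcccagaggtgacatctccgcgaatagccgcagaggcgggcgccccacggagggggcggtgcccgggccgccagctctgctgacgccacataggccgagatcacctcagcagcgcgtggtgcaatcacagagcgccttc
Elovl6: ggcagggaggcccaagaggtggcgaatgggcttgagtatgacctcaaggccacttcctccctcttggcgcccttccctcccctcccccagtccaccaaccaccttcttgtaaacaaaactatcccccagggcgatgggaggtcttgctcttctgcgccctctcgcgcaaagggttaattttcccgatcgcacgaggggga
Over the 250 bases before the start, windows were at hand for 22 of the 29 members, and not for Fdps, Fdft1, Sqle, Stard4, Fads1, Scd1 and Scd2. TCACNCCAC occurred in 1 of the 22 (4.55%), as TCACCCCAC upstream of the Hmgcs1 start, and in 1.22% of all 27025 genes with a window. CCAAT occurred in 18 of 22 (81.8%) against 37.5% of all genes, and the Sp1 letters GGGCGG in 18 of 22 (81.8%) against 35.4%. The Cyp51 window had 1 CCAAT, which lay outside the stretch shown, and that of Hsd17b7 had 3. Those of Fads2 and Elovl6 had none, and neither had those of Acly and Acaca, which were not called against MEFs. A match is a description of the letters only, and each motif was searched on both strands independently of the others, so that matches may overlap.

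**Figure D1:**
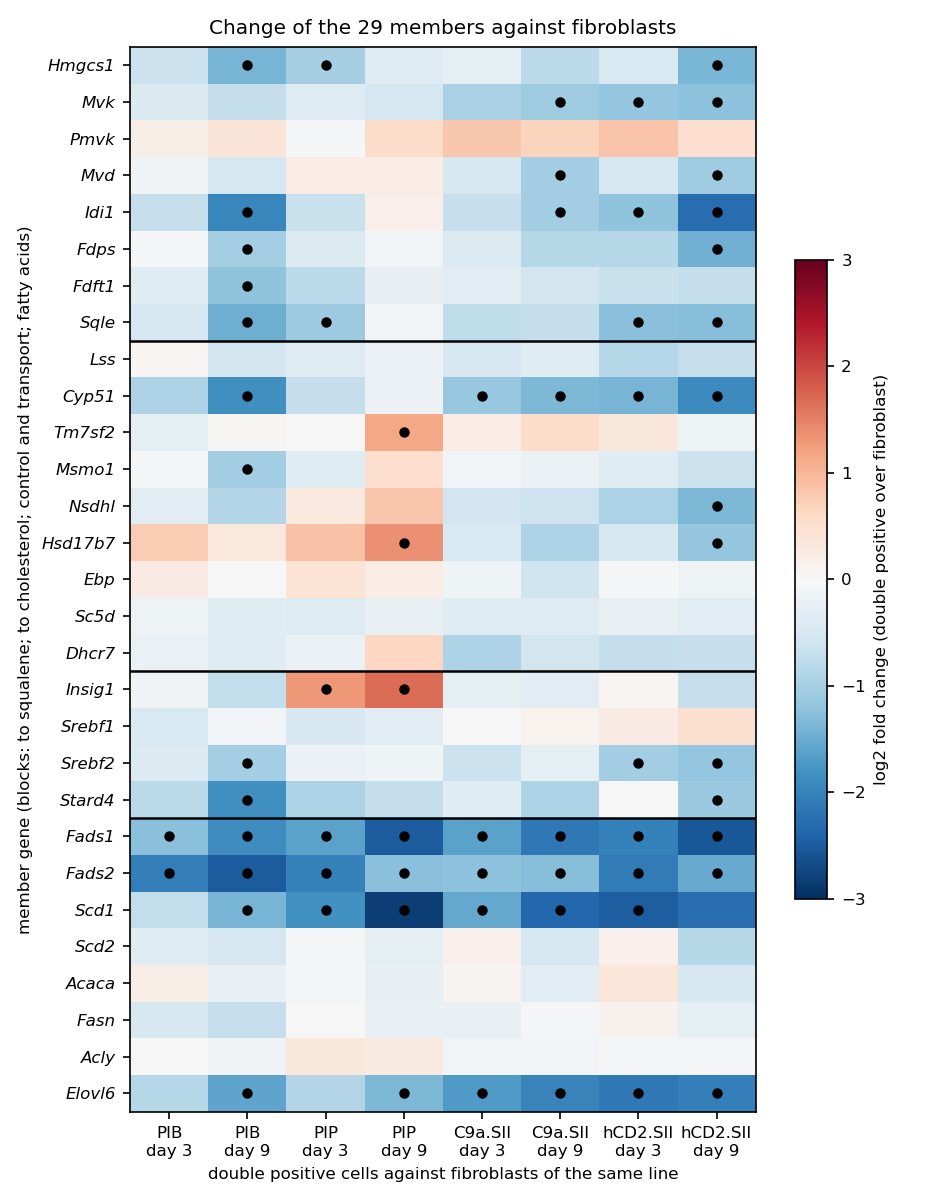
Log2 fold change (colour) of each member gene (rows) in double positive cells over fibroblasts of the same line, for each cocktail on day 3 and day 9 (columns). Black dots mark members that passed the test and the 2-fold minimum. Fads1 and Fads2 have a dot in all 8 columns, and the members marked as higher, Insig1, Hsd17b7 and Tm7sf2, are so in PIP columns only.

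On day 9 several sterol genes were lower than in MEFs in the double positive cells of 3 of the 4 groups, with the fewest in C9a.SII. In PIP cells 0 of 17 sterol enzymes passed as lower, though Mvk, Hmgcs1 and Fdft1 were down by less than 2-fold. Insig1 and Hsd17b7 were higher in PIP. Against MEFs, 13 of 29 members were lower and 0 higher in PIB cells, where 11.4% of all tested genes were lower and 10.4% higher. In C9a.SII cells 8 were lower and 0 higher (10.9% and 10.5% of all genes), and in hCD2.SII cells 14 were lower and 0 higher (8.41% and 10.8%). In PIP cells 4 were lower and 3 higher (14.5% and 15.2%), shares near those of all genes. The median difference over the 29 members was -0.75 in PIB, -0.61 in C9a.SII, -1.06 in hCD2.SII and -0.18 in PIP, beside medians of all tested genes between -0.00 and 0.05. Members higher at an unadjusted p under 0.05, whatever their fold, numbered 2 in PIB, 1 in C9a.SII and 1 in hCD2.SII, and DESeq2 gave 0 in each of the 3 as well. The PIB, PIP and C9a.SII comparisons share the same 4 C9a.MEF libraries and are not independent of each other.

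Summed over the 17 sterol enzymes, levels on day 9 were 199.5 to 212 CPM in PIB, 226 to 253 CPM in C9a.SII and 328 to 366 CPM in PIP, against 373 to 399 CPM in C9a.MEF. In hCD2.SII they were 193, 199 and 263 CPM, the highest in replicate 1, against 431 to 475 CPM in hCD2.MEF. No transduced group overlapped its MEFs in CPM, but PIP libraries came close to them. The median of all genes in PIP against MEFs was 0.05 in the fit and -0.18 under scaling by totals, which CPM use. The small PIP gap in CPM may therefore not hold under the scaling of the fit. The 8 fatty acid members summed to 521 to 603 CPM in PIB, 547 to 639 CPM in PIP, 533 to 649.6 CPM in C9a.SII and 459 to 744 CPM in hCD2.SII, against 887 to 924 CPM in C9a.MEF and 875 to 1005 CPM in hCD2.MEF. Here PIP lay in the range of the other cocktails. A sum of CPM gives most weight to the most counted genes, which among the fatty acid members are Scd2, Fasn and Acly. Sums of dividing-cell markers lay below those of MEFs in every group: 15 proliferation genes summed to 539 to 672 CPM in C9a.MEF and to 93.2 to 112.9 CPM in PIB, 101.6 to 110.2 CPM in PIP and 141.7 to 326 CPM in C9a.SII. They summed to 812 to 927 CPM in hCD2.MEF and to 67.4 to 215 CPM in hCD2.SII. Fibroblast markers stood at 6452 to 7911 CPM in PIB, 1058 to 1338 CPM in PIP and 1736 to 2336 CPM in C9a.SII. PIP, with the lowest fibroblast markers of these 3 and proliferation markers in the range of PIB, had the highest sterol enzyme sums. Macrophage markers moved with the groups too: 7 genes summed to 726 to 1028 CPM in PIB, 90.6 to 141.996 CPM in PIP, 67.02 to 233 CPM in C9a.SII and 5.52 to 7.40 CPM in C9a.MEF, and to 28.7 to 81.8 CPM in hCD2.SII against 2.56 to 5.88 CPM in hCD2.MEF. In PIB most of this was Lyz2, lysozyme, at 650.2 to 898 CPM, while Adgre1, which encodes the macrophage antigen F4/80, was at 0.33 to 0.77 CPM. Cd14 was at 37.5 to 53.6 CPM in PIB and at 2.23 to 3.62 CPM in C9a.MEF. Csf1r was at 16.6 to 46.5 CPM in PIB and at 0.617 to 1.79 CPM in C9a.MEF. The PIB libraries also lay above all C9a.MEF libraries in Cd68, Mrc1 and Marco. The part of these markers in the differences was not tested.

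**Figure D2:**
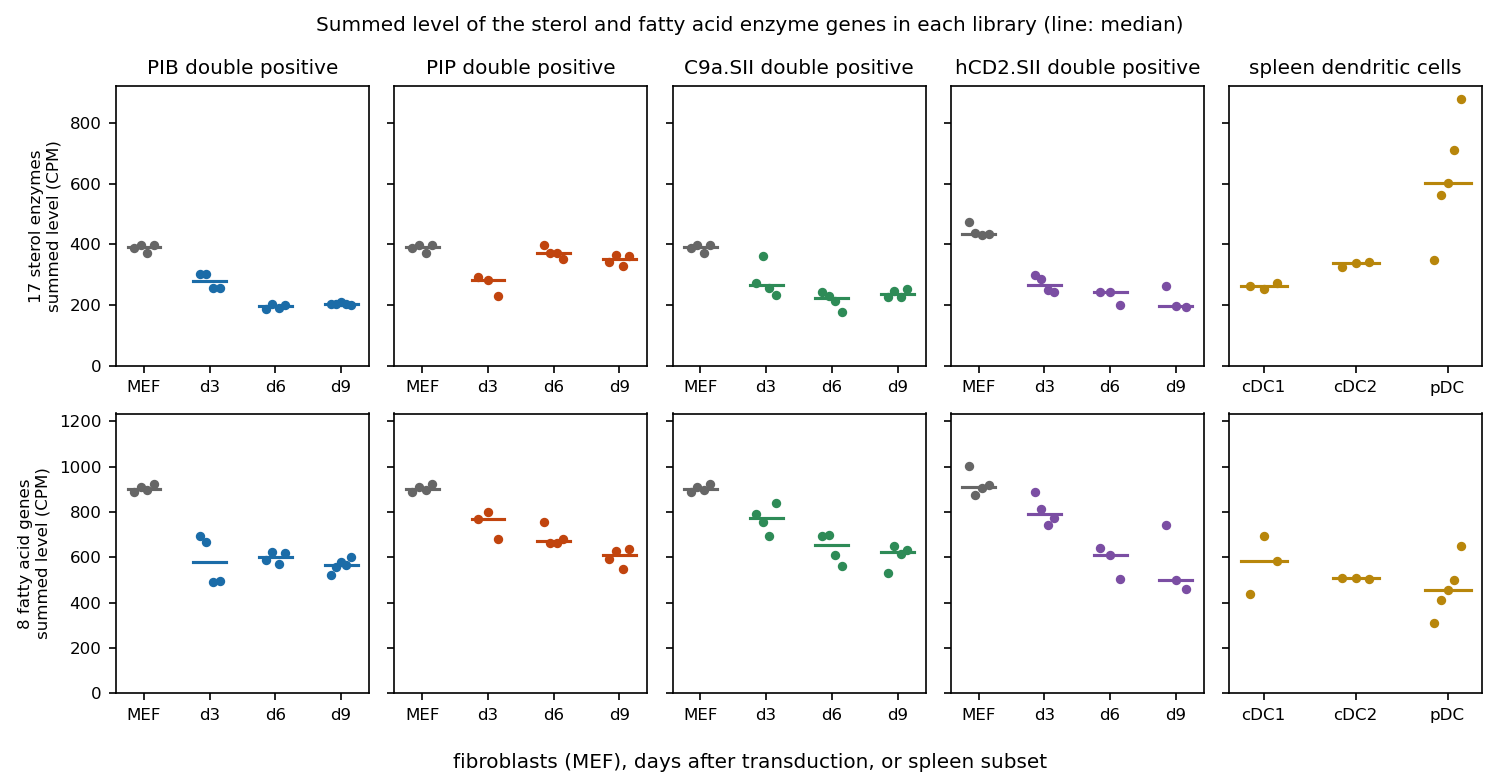
Summed level in CPM (linear axes from 0) of the 17 sterol enzyme genes (top) and of the 8 fatty acid genes (bottom) in each library (points, with the median as a line), for fibroblasts (MEF), double positive cells on days 3, 6 and 9 (d3, d6, d9) and splenic subsets. In the top row the PIP libraries of day 9 lie between 328 and 366 CPM and those of PIB between 199.5 and 212 CPM.

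Fads1, Fads2 and Elovl6 fell in all 4 day 9 groups, and Scd1 in the 3 of the C9a line. Fads1 and Fads2 encode the delta-5 and delta-6 desaturases, which introduce double bonds of polyunsaturated fatty acids, Scd1 the stearoyl-CoA desaturase of monounsaturated fatty acids, and Elovl6 the elongase from palmitate to stearate. Fads1 (chr19:10182888-10196877, plus strand) and Fads2 (chr19:10062765-10101746, minus strand) are neighbours in GRCm38. Fads1 was at 55.8, 52.8, 55.7 and 59.1 CPM in C9a.MEF. On day 9 it was at 14.8, 11.9, 13.0, 10.2 and 24.7 CPM in PIB, at 8.85, 8.92, 7.46 and 8.58 CPM in PIP and at 10.5, 11.3, 13.1 and 12.7 CPM in C9a.SII. All transduced libraries lay below all MEF libraries in CPM, and the PIP libraries lay below those of both other cocktails. By the call, PIP differed from neither of them in Fads1. The differences from MEFs were -1.86 ± 0.20 in PIB (adjusted p = 1.91e-05), -2.49 ± 0.08 in PIP (adjusted p = 3.99e-14) and -2.14 ± 0.09 in C9a.SII (adjusted p = 2.38e-08).

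In the hCD2 line Fads1 was at 70.6, 72.5, 77.8 and 67.7 CPM in MEFs and at 27.9, 4.93 and 3.57 CPM in hCD2.SII double positive cells. The groups did not overlap, but replicate 1 was at least 5 times the other libraries, as it was for fibroblast markers. The difference was -2.54 ± 0.70 (adjusted p = 0.0304) and passed neither without MEF replicates 1 to 4 in turn (-2.51 to -2.56) nor without hCD2.SII replicate 2 or 3 (-2.17 and -2.12), nor with replicate number as a block. Without replicate 1 it was -4.14 ± 0.16 (adjusted p = 6.48e-11). Scd1 was at 31.4, 2.39 and 4.93 CPM against 56.2 to 70.2 CPM in MEFs, which did not pass (-2.28 ± 0.80, adjusted p = 0.0647). Without replicate 1 its difference was -4.22 ± 0.22 (adjusted p = 2.41e-09).

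Fads2 was at 32.4, 39.2, 34.9 and 42.9 CPM in C9a.MEF, and on day 9 at 4.54, 12.1, 4.52, 5.07 and 5.24 CPM in PIB, at 16.8, 5.25, 18.8 and 13.2 CPM in PIP and at 26.2, 7.67, 15.7 and 16.3 CPM in C9a.SII. No library reached the lowest MEF library, but levels in PIP and C9a.SII were scattered over a range of more than 3-fold. The difference was -2.51 ± 0.28 in PIB (adjusted p = 4.02e-05), -1.26 ± 0.37 in PIP (adjusted p = 0.0211) and -1.27 ± 0.32 in C9a.SII (adjusted p = 0.00983). The PIP call was lost without C9a.MEF replicate 4 (-1.20), PIP replicate 2 (-0.96) or PIP replicate 4 (-1.25), and the C9a.SII call without its replicate 2 (-0.98). In hCD2.SII the levels of 13.8, 8.22 and 18.9 CPM against 36.9 to 40.5 CPM gave -1.51 ± 0.24 (adjusted p = 0.00252).

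Scd1 in C9a.MEF was at 56.4, 64.5, 59.3 and 67.5 CPM. On day 9 it stood at 22.1, 24.9, 23.8, 29.5 and 12.2 CPM in PIB, at 9.00, 5.90, 7.28 and 7.76 CPM in PIP and at 13.1, 10.2, 10.3 and 14.1 CPM in C9a.SII. In CPM, PIP libraries were all below C9a.SII libraries, and these below all but the lowest PIB library. Neither PIP nor PIB differed from C9a.SII in Scd1 by the call. The differences from MEFs were -1.38 ± 0.20 (adjusted p = 0.000248), -2.83 ± 0.11 (adjusted p = 1.23e-12) and -2.35 ± 0.13 (adjusted p = 1.6e-07). Elovl6 was at 25.003 to 29.1 CPM in C9a.MEF and at 7.92 to 11.5 CPM in PIB, 8.00 to 10.1 CPM in PIP and 14.0, 3.67, 5.14 and 9.43 CPM in C9a.SII, with no overlap. Its differences were -1.57 ± 0.11 (adjusted p = 3.07e-08), -1.35 ± 0.09 (adjusted p = 9.25e-10) and -1.9998 ± 0.32 (adjusted p = 0.000654). In hCD2.SII Elovl6 was at 12.9, 1.94 and 5.10 CPM against 25.3 to 31.2 CPM, and its call (-2.05 ± 0.51, adjusted p = 0.0193) was lost without replicate 3 (-1.89).

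The other 4 fatty acid members were not called against MEFs in any cocktail on day 3 or 9. These were Acly, which makes cytosolic acetyl-CoA, Acaca, the acetyl-CoA carboxylase, Fasn, the fatty acid synthase, and the desaturase Scd2, a close paralogue of Scd1 on the same stretch of chromosome 19. Day 9 levels of Acly were 98.6 to 146.03 CPM in PIB, 130.7 to 156.1 CPM in PIP and 88.1 to 142.9 CPM in C9a.SII, overlapping the 133.5 to 139.2 CPM of C9a.MEF. Scd2 was at 322, 330.4, 338 and 337 CPM in C9a.MEF, at 222, 227, 239, 234 and 196 CPM in PIB, at 229, 257, 211 and 249 CPM in PIP and at 163.04, 254, 227 and 234 CPM in C9a.SII. All transduced libraries were below all C9a.MEF libraries in CPM, with fitted differences of -0.50 in PIB, -0.26 in PIP and -0.51 in C9a.SII, under the 2-fold minimum. In hCD2.SII Scd2 was at 326, 141.5 and 113.1 CPM against 325 to 388 CPM, and without replicate 1 it passed as lower (-1.50 ± 0.11, adjusted p = 4.97e-08). Scd1 and Scd2 are alike in sequence, and how the counting shared reads between them is not given in the sources used here.

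Among the genes of sterol control, Insig1, which retains the SREBP precursor in the endoplasmic reticulum, was higher in PIP cells than in MEFs, in PIB and in C9a.SII. Insig1 was at 14.8, 13.9, 12.8 and 15.3 CPM in C9a.MEF and at 37.8, 41.7, 33.7 and 41.98 CPM in PIP cells of day 9. It was at 8.20, 6.18, 7.11, 8.68 and 10.7 CPM in PIB and at 15.7, 11.1, 10.3 and 9.85 CPM in C9a.SII. Every PIP library lay above every MEF library, and every PIB library below. The difference from MEFs was 1.67 ± 0.08 in PIP (adjusted p = 1.41e-11), that of PIB over PIP -2.39 ± 0.12 (adjusted p = 2.71e-09) and that of PIP over C9a.SII 1.97 ± 0.17 (adjusted p = 3.19e-06). In PIB (-0.75) and in C9a.SII (-0.31) and hCD2.SII (-0.69) the difference from MEFs was under 2-fold.

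Srebf2, which encodes the SREBP that mainly drives sterol genes, was at 115.97, 111.7, 115.9 and 118.3 CPM in C9a.MEF. On day 9 it was at 52.5, 57.2, 57.3, 53.2 and 50.2 CPM in PIB, at 87.4, 90.7, 83.7 and 101.1 CPM in PIP and at 77.6, 100.7, 83.5 and 89.4 CPM in C9a.SII. All lay below MEFs in CPM, with the PIB libraries lowest. The PIB difference of -1.03 ± 0.06 (adjusted p = 6.49e-09) was just past 2-fold and lost its call without PIB replicate 5 (-0.997), and those of PIP (-0.12) and C9a.SII (-0.30) were under it. In hCD2.SII Srebf2 was at 83.04, 55.2 and 60.3 CPM against 138.4 to 155.6 CPM (-1.16 ± 0.15, adjusted p = 0.000894). Srebf1, which encodes the SREBP with a larger role in fatty acid genes, was not called against MEFs in any cocktail. It was at 52.5 to 60.8 CPM in C9a.MEF, 39.3 to 55.2 CPM in PIB, 36.1 to 39.7 CPM in PIP and 33.1 to 69.7 CPM in C9a.SII, and at 65.5 to 70.8 CPM in hCD2.SII against 47.1 to 51.7 CPM in hCD2.MEF. Stard4, a carrier of cholesterol between membranes, was lower in PIB (-1.83 ± 0.17, adjusted p = 6.15e-07), with 2.66 to 4.66 CPM against 11.4 to 14.7 CPM. In hCD2.SII it was also lower (-1.12 ± 0.23, adjusted p = 0.00643), a call lost without replicate 2 (-0.96).

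Of the 8 enzymes that lead to squalene epoxide, 5 were lower in PIB, 3 in C9a.SII, 6 in hCD2.SII and 0 in PIP on day 9, and 0 were higher in any of them. Over all genes the shares lower were 11.4%, 10.9%, 8.41% and 14.5%, and the shares higher 10.4%, 10.5%, 10.8% and 15.2%. In PIP, Mvk (-0.53), Hmgcs1 (-0.38) and Fdft1 (-0.26) had an adjusted p under 0.05 in edgeR's test but were under the 2-fold minimum, and DESeq2 called the same number of members as edgeR over all 29. Idi1, the isopentenyl diphosphate isomerase, was at 17.97, 20.1, 16.3 and 20.4 CPM in C9a.MEF and at 4.70, 5.06, 4.07, 5.84 and 3.23 CPM in PIB. It was at 17.2, 18.1, 18.1 and 18.1 CPM in PIP and at 6.10, 9.18, 7.87 and 9.96 CPM in C9a.SII. PIP libraries lay inside the MEF range, and PIB and C9a.SII libraries all below it. The differences from MEFs were -1.95 ± 0.15 in PIB (adjusted p = 1.38e-07) and -1.05 ± 0.12 in C9a.SII (adjusted p = 3.46e-05), and PIP exceeded C9a.SII by 1.21 ± 0.12 (adjusted p = 9.41e-06). In the hCD2 line Idi1 was at 22.9 to 25.5 CPM in MEFs and at 7.79, 2.84 and 4.08 CPM in SII cells (-2.28 ± 0.30, adjusted p = 0.00101).

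Hmgcs1, which condenses acetyl-CoA units at the head of the mevalonate route and whose promoter holds the TCACNCCAC match shown above, was at 53.1 to 60.5 CPM in C9a.MEF and at 19.4 to 21.6 CPM in PIB (-1.39 ± 0.06, adjusted p = 7.64e-10). It was at 34.2 to 38.9 CPM in PIP and at 20.9 to 35.3 CPM in C9a.SII, both below the MEF range without a call. Sqle, the squalene epoxidase, was at 21.8 to 28.5 CPM in C9a.MEF and at 7.88 to 10.0 CPM in PIB (-1.45 ± 0.09, adjusted p = 2.17e-08), against 17.8 to 23.3 CPM in PIP. Fdft1, the squalene synthase, was lower in PIB (-1.21 ± 0.10, adjusted p = 1.71e-07). Fdps, the farnesyl diphosphate synthase, was lower by barely 2-fold (-1.02 ± 0.06, adjusted p = 1.89e-08), a call lost without PIB replicate 3 (-0.99). In C9a.SII, Mvk (-1.06 ± 0.16), the mevalonate kinase, and Mvd (-1.04 ± 0.19), the mevalonate diphosphate decarboxylase, were lower with calls that rested on single libraries. The former was -0.92 without replicate 4, and the latter -0.999 without replicate 1 and -0.97 without replicate 3. Pmvk, the phosphomevalonate kinase between them, was not called in any comparison with MEFs, and its differences from MEFs ranged from -0.06 in PIP of day 3 to 0.86 in hCD2.SII of day 3.

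In hCD2.SII the enzymes lower at this stage were Idi1, Fdps (-1.44 ± 0.16, adjusted p = 0.000535), Hmgcs1 (-1.38 ± 0.18, adjusted p = 0.00096), Sqle (-1.27 ± 0.19, adjusted p = 0.00192), Mvk (-1.24 ± 0.26, adjusted p = 0.00791) and Mvd (-1.06 ± 0.31, adjusted p = 0.0278). The Mvd call was lost without each of 6 of the 7 libraries in turn (-0.82 to -1.10) and under the replicate block. In this comparison all 3 pairs of same-numbered libraries correlated weakly (0.11 to 0.22), though not every library correlated best with its own number. The block left 11 members lower in place of 14, without Fads1, Mvd and Nsdhl. Leaving out each library in turn gave 10 to 17 lower members, with 17 without hCD2.SII replicate 1. Its fibroblast markers stood far above those of the other hCD2.SII libraries, and its sterol enzyme sum was also the highest.

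Of the 9 enzymes from squalene epoxide to cholesterol, 2 were lower in PIB, 1 in C9a.SII and 3 in hCD2.SII, and 2 were higher in PIP. Over all genes 11.4%, 10.9% and 8.41% were lower in these 3 groups, and 15.2% were higher in PIP. With so few enzymes, the counts in PIB, C9a.SII and PIP are near those shares. Cyp51, the lanosterol demethylase, was at 35.4, 34.99, 32.9 and 30.4 CPM in C9a.MEF. It was at 8.04, 8.07, 10.1, 9.54 and 8.47 CPM in PIB, at 22.3, 27.6, 22.5 and 28.5 CPM in PIP and at 15.7, 11.6, 10.1 and 14.99 CPM in C9a.SII. All lay below MEFs in CPM, and every PIP library lay above every PIB and C9a.SII library. The differences were -1.85 ± 0.09 in PIB (adjusted p = 1.26e-09) and -1.36 ± 0.15 in C9a.SII (adjusted p = 2.57e-05), and that of PIP (-0.18 ± 0.08) was not called. In hCD2.SII it was at 15.97, 7.63 and 8.66 CPM against 36.9 to 46.1 CPM in MEFs (-1.90 ± 0.25, adjusted p = 0.00101). Msmo1, a sterol C4 methyl oxidase, was lower in PIB by -1.03 ± 0.11 (adjusted p = 4.48e-06), a call lost without C9a.MEF replicate 4 (-0.99) or PIB replicate 5 (-0.96).

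Hsd17b7, a reductase that acts on C3 ketosterols after demethylation, went opposite ways in PIP and hCD2.SII cells. It was at 14.4, 15.4, 18.2 and 19.1 CPM in C9a.MEF and at 37.5, 38.6, 31.6 and 41.8 CPM in PIP (1.38 ± 0.10, adjusted p = 1.7e-09). In PIB it was at 16.7 to 22.2 CPM and in C9a.SII at 7.78 to 9.75 CPM, with differences of 0.32 and -0.92 that were not called. In hCD2.SII it was at 11.4, 5.98 and 6.96 CPM against 15.3 to 21.3 CPM (-1.15 ± 0.24, adjusted p = 0.00719), a call lost without replicate 2 (-0.98). Every PIP library thus lay above, and every C9a.SII library below, the MEF libraries. Tm7sf2, a sterol C14 reductase, was higher in PIP, with 3.15 to 3.86 CPM against 1.61 to 2.37 CPM in C9a.MEF (1.16 ± 0.22, adjusted p = 0.000175), a call lost when libraries were scaled by their totals (0.93). Nsdhl, which removes the C4 carboxyl group, was lower in hCD2.SII by -1.34 ± 0.31 (adjusted p = 0.0106) and lost its call under the replicate block. Lss, Ebp, Sc5d and Dhcr7, the cyclase and late isomerase, desaturase and reductase steps, were called in no comparison with MEFs.

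**Figure D3:**
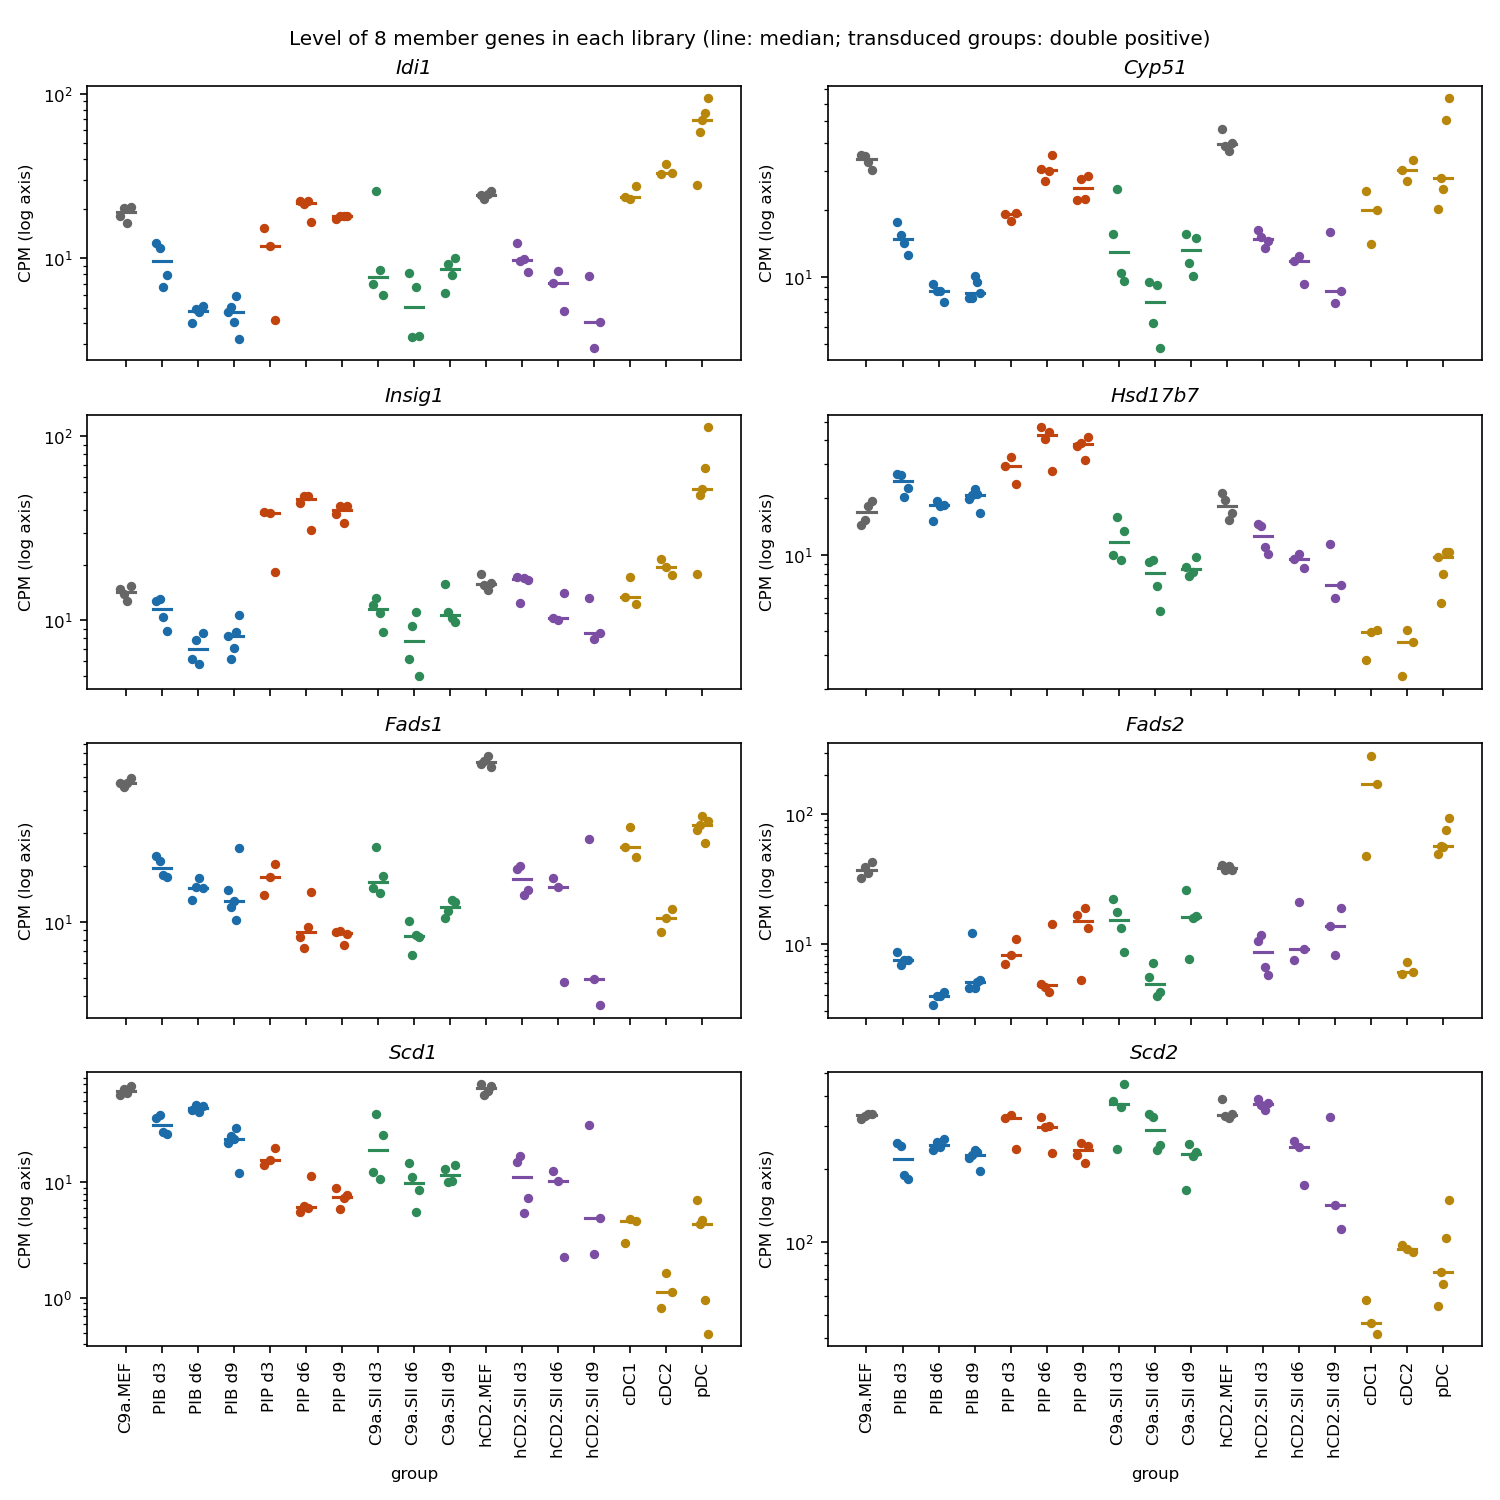
Level in CPM (log axes) of 8 member genes in each library (points, with the median as a line), for fibroblasts of both lines, double positive cells by cocktail and day (d3, d6, d9), and splenic subsets. Insig1 in PIP cells of day 9 lies between 33.7 and 41.98 CPM against 12.8 to 15.3 CPM in C9a.MEF, and Fads2 in cDC1 between 47.5 and 284 CPM against 5.86 to 7.22 CPM in cDC2.

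On day 3 Fads1 and Fads2 were already lower in all 4 groups. In PIB 2 of 29 members were lower and 0 higher (10.9% and 11.9% of all genes), namely Fads2 (-2.07 ± 0.12, adjusted p = 5.63e-09) and Fads1 (-1.26 ± 0.07, adjusted p = 2.93e-09). In PIP 5 were lower and 1 higher (11.1% and 10.6%), with Insig1 at 39.002, 38.1 and 18.4 CPM (1.30 ± 0.28, adjusted p = 0.00623) and Fads2, Scd1 and Fads1 between -2.03 and -1.61. Calls of Sqle (-1.09) and Hmgcs1 (-1.003) in PIP were lost without PIP replicate 3 (-0.94 and -0.81), which left 3 lower and 2 higher, and that of Hmgcs1 also without C9a.MEF replicate 4 (-0.97). This replicate 3 is the library with little Ptprc, and it had 18.4 CPM of Insig1, 85.4 CPM of leukocyte markers against 235 and 236 CPM in the others and 4773 CPM of fibroblast markers against 2640 and 2711 CPM. Without it the difference of Insig1 was 1.58 ± 0.09 (adjusted p = 7.37e-12). In C9a.SII 5 were lower and 0 higher (8.71% and 8.84%), led by Elovl6 (-1.71 ± 0.27, adjusted p = 0.00098) and Fads1 (-1.61 ± 0.14, adjusted p = 4.32e-05), and 8 were lower without replicate 2. That library, with Ptprc at 1.52 CPM against 114.8 to 334 CPM in the others, had 25.6 CPM of Idi1 against 5.98 to 8.44 CPM. Its leukocyte markers summed to 198.8 CPM against 398 to 885 CPM, its fibroblast markers to 1744 CPM against 3009 to 4363 CPM and its proliferation markers to 372 CPM against 177 to 219 CPM. Without it Elovl6 was at -2.08 ± 0.11 (adjusted p = 2.14e-06), and Idi1 (-1.28 ± 0.19, adjusted p = 0.000626), Mvk and Sqle joined the lower members. The call of Cyp51 there (-1.13 ± 0.25) was lost without replicate 4 (-0.98). In hCD2.SII 9 were lower and 0 higher (13.3% and 10.8%), led by Scd1 (-2.46 ± 0.33, adjusted p = 0.00034) and Elovl6 (-2.14 ± 0.24, adjusted p = 4.39e-05). Leaving out hCD2.SII replicate 1 of day 3 gave 1 higher. The members nearest to no change were Acly in PIB (0.00), Tm7sf2 in PIP (0.00), Srebf1 in C9a.SII (-0.00) and Stard4 in hCD2.SII (0.00). Members higher on day 3 at an unadjusted p under 0.05 numbered 2 in PIB, 1 in C9a.SII and 4 in hCD2.SII, and DESeq2 called 0 in each.

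From day 3 to day 9, 3 sterol enzymes fell in PIB and 0 in PIP. Of the 3, only Idi1 kept its call under every alternative run. In PIB 4 members were lower on day 9 and 0 higher, where 8.47% and 3.67% of all genes were. Idi1 was at 12.4, 11.5, 6.69 and 7.86 CPM on day 3 against 3.23 to 5.84 CPM on day 9 (-1.27 ± 0.18, adjusted p = 0.000284). In PIB day 3 replicates 3 and 4 a single identifier without a symbol held 30.1% and 26.1% of counts, which lowers their other CPM. It held 12.9% and 15.1% in replicates 1 and 2. The calls of Stard4, Fdps and Msmo1 (-1.04, -1.03 and -1.02) lay at the 2-fold minimum and were lost under several alternatives, which left 1 lower under 4 of them, and 2 were lower without PIB day 3 replicate 2. In PIP 1 was lower and 1 higher (2.95% and 3.25%; scaling by totals gave 2 and 1): Scd1 (-1.01 ± 0.17) with a call lost without PIP day 3 replicate 3 (-0.92) or day 9 replicate 2 (-0.91), and Tm7sf2 (1.14 ± 0.23, adjusted p = 0.0125). Without PIP day 3 replicate 1 or 2, or day 9 replicate 1, 2 or 4, there were 2 higher, and without day 3 replicate 1 there were 2 lower. The median difference over the members was -0.60 in PIB and 0.25 in PIP, against medians of all genes of -0.02 and -0.00. Scaling by totals moved these to 0.19 and -0.12. Sums over the sterol enzymes were 255 to 303 CPM on day 3 and 188 to 202 CPM on day 6 in PIB, and 230.4 to 294 CPM on day 3 and 353 to 398 CPM on day 6 in PIP. All PIP libraries of days 6 and 9 thus exceeded those of day 3, and the reverse held in PIB. Macrophage markers in PIB summed to 76.2 to 121.8 CPM on day 3, 429 to 467 CPM on day 6 and 726 to 1028 CPM on day 9, beside the lower members, and their part was not tested. In C9a.SII 0 members were called in either direction, with or without day 3 replicate 2, where 0.00643% of all genes were lower and 0.0965% higher, with 4 lower and 0 higher at an unadjusted p under 0.05 and 0 by DESeq2. In hCD2.SII Stard4 was lower (1 of 29, against 2.07% of all genes) and 0 were higher (4.48%), with 8 lower without day 9 replicate 1 and 0 without day 9 replicate 2 or 3 or day 3 replicate 3 or 4.

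Double positive cells were also compared with cells sorted for the reporter alone on day 9. In the C9a line 0 members were called by edgeR in PIB (0.940% of all genes were higher and 0.762% lower), PIP (0.0122% and 0%) and C9a.SII (0.115% and 0.0321%). At an unadjusted p under 0.05, 10 members were lower and 0 higher in PIB double positive cells, 0 lower and 12 higher in PIP and 6 lower and 0 higher in C9a.SII, and DESeq2 called 0 in each. For counts at an unadjusted p, here and elsewhere, no share of all genes is given, so they cannot be read as an excess. In the hCD2 line 9 of 29 members were lower and 0 higher in double positive cells, where 4.13% and 8.08% of all genes were. Idi1 was at 23.1, 22.9, 20.9 and 27.7 CPM in the YFP+ sort, like hCD2.MEF, and at 7.79, 2.84 and 4.08 CPM in double positive cells (-2.21 ± 0.30, adjusted p = 0.00257). Cyp51 (-1.76 ± 0.24, adjusted p = 0.00262) and Fdps (-1.24 ± 0.16, adjusted p = 0.00222) and Idi1 kept their calls under every alternative run. The sterol enzyme sum of the YFP+ libraries was 407 to 453 CPM and that of cells sorted for CD45 alone 221 to 233 CPM, near the 193 to 263 CPM of double positive cells. Leukocyte markers summed to 169 to 187 CPM in the YFP+ sort and to 491 to 869 CPM in double positive cells, fibroblast markers to 10254 to 11350 CPM against 706 to 8074 CPM, and proliferation markers to 542 to 623 CPM against 67.4 to 215 CPM. RNA of the SII factors differed between the sorts too. Ikzf2 was at 72.8 to 84.8 CPM in the YFP+ sort and at 378.04, 955.5 and 1041.65 CPM in double positive cells. Spib was at 11.7 to 12.4 CPM against 53.8, 147.3 and 174.6 CPM, and Irf8 was lower in every YFP+ library as well. Among the double positive libraries replicate 1 had the least of each factor. These markers and factors moved with the members, and their part in the difference was not tested. Without replicate 1 of the double positive cells 16 members were lower, and without replicate 2 or 3 there were 5.

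**Figure D4:**
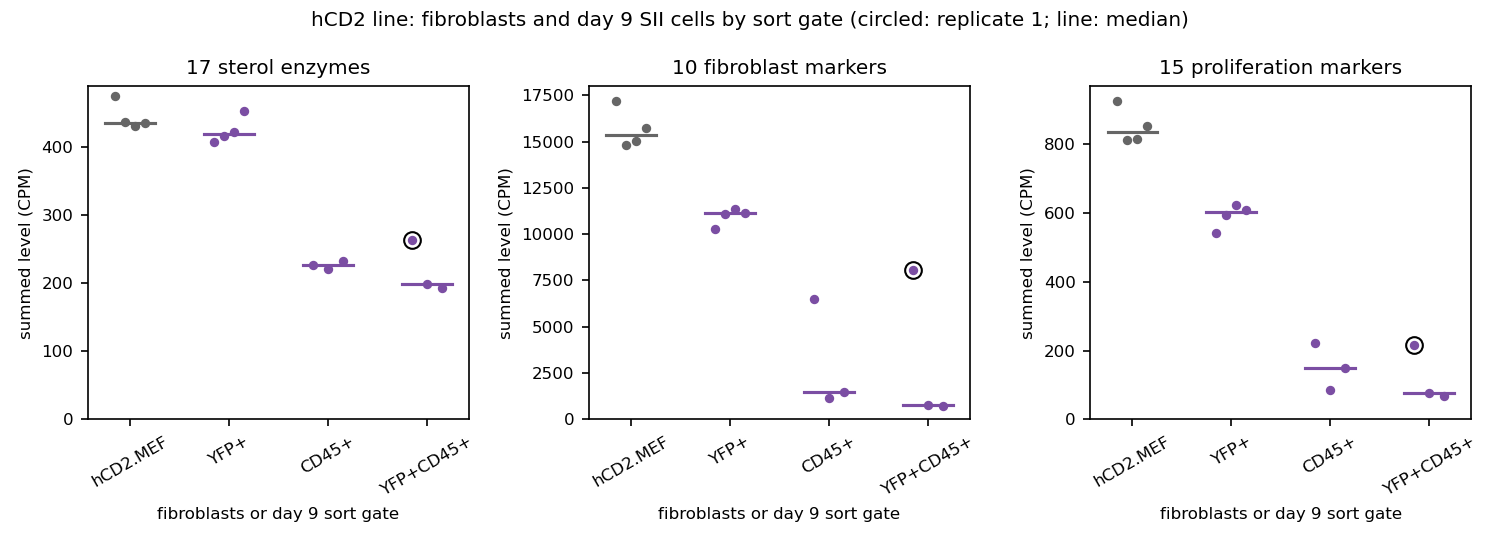
Summed level in CPM (linear axes from 0) of the 17 sterol enzymes, 10 fibroblast markers and 15 proliferation markers in each library of the hCD2 line (points, with the median as a line), for fibroblasts and day 9 SII cells by sort gate. The circled double positive replicate 1 has 8074 CPM of fibroblast markers, and the YFP+ sort has 407 to 453 CPM of sterol enzymes against 193 to 263 CPM in double positive cells.

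The cocktails were compared directly on day 9. PIB had 10 members lower and 1 higher than PIP, or 11 called, where 21.6% of all genes were called in either direction. Shares by direction are not given here, so the 10 lower members cannot be set against the share of all genes lower. After Insig1 the differences were largest for Idi1 (-2.09 ± 0.15, adjusted p = 5.73e-08), Nsdhl (-1.69 ± 0.14, adjusted p = 4.04e-07) and Cyp51 (-1.64 ± 0.10, adjusted p = 2.22e-08). Msmo1 and Sqle were lower in PIB as well (-1.51 ± 0.12 and -1.35 ± 0.10), and Scd1 was higher (1.46 ± 0.24, adjusted p = 0.00047). Nsdhl was at 4.55 to 6.45 CPM in PIB and at 13.1 to 16.4 CPM in PIP, with MEFs between them at 9.28 to 10.6 CPM. The calls of Fads2, Tm7sf2, Stard4 and Hsd17b7 were lost when libraries were scaled by their totals, which left 6 lower. All of these but Stard4 also lost the call under the replicate block and with some library left out, which gave 7 to 11 lower. Fads2 and Hsd17b7 lost it without the low-count filter too, and Hsd17b7 with DESeq2's Wald test and in 1 fit over all groups.

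PIP exceeded C9a.SII in 7 members and was lower in 0, where 10.9% and 11.5% of all genes were. Lower members at an unadjusted p under 0.05 numbered 3, and DESeq2 called 0. The highest was Hsd17b7 (2.29 ± 0.13, adjusted p = 1.14e-07), followed by Insig1, Nsdhl (1.44 ± 0.16, adjusted p = 2.87e-05), Mvd (1.25 ± 0.25, adjusted p = 0.00165) and Idi1. Dhcr7, the last reductase of the pathway, and Cyp51 were each higher by 1.15 ± 0.16 and lost their calls under scaling by totals. Dhcr7 was at 9.46 to 12.1 CPM in PIP and at 5.05 to 5.68 CPM in C9a.SII. PIB and C9a.SII differed in 2 members: Hsd17b7 was higher in PIB (1.24 ± 0.14, adjusted p = 2.73e-05; 1 of 29, against 8.57% of all genes), and Fads2 was lower (-1.30 ± 0.42, adjusted p = 0.0344; 1 of 29, against 9.92%). The Fads2 libraries overlapped, and leaving out each of 7 libraries in turn ended the call (-1.03 to -1.31). In this comparison 2 members were higher without PIB replicate 5 or C9a.SII replicate 1 or 4. The members nearest to no difference were Acaca between PIB and PIP (0.05), Scd2 between PIB and C9a.SII (0.01) and Fads2 between PIP and C9a.SII (-0.01). These 3 comparisons share libraries.

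Untransduced MEFs of the lines did not differ in any member by the call (2.93% of all genes did, in either direction), with 1 higher and 8 lower in C9a.MEF at an unadjusted p under 0.05 and 0 by DESeq2. The effect of SII on day 9 was tested for a difference between the lines, and 0 members passed in either direction (0.180% of all genes higher and 0.388% lower). At an unadjusted p under 0.05 the SII effect was above that of the hCD2 line in 6 members in the C9a line and below it in 1, and DESeq2 called 1 of the former kind. Without hCD2.SII replicate 1 there were 5 with the larger fall in the hCD2 line: Fads1 (1.93 ± 0.18, adjusted p = 2e-06), Scd1, Idi1, Nsdhl and Srebf2. The count thus turned on 1 library.

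The double positive cells of day 9 were set against splenic subsets, PIB against cDC1, PIP against cDC2 and SII against pDC. These comparisons set cultured cells against fresh ones, and the median of all tested genes was itself -0.11 in PIB against cDC1 and -0.24 in hCD2.SII against pDC. PIB cells had 4 members higher and 5 lower than cDC1, where 25.4% and 32.2% of all genes were, so the members' shares were below those of all genes. Hsd17b7 (2.79 ± 0.18, adjusted p = 3.98e-09), Scd1 (2.77 ± 0.32, adjusted p = 1.03e-05) and Scd2 (2.4996 ± 0.13, adjusted p = 3.34e-10) were higher, with Sc5d. Fads2 (-4.39 ± 0.62, adjusted p = 0.000584), Idi1 (-2.11 ± 0.19, adjusted p = 1.14e-07), Srebf2 (-1.998 ± 0.08, adjusted p = 2.23e-11) and Stard4 were lower. PIP cells had 7 members higher and 1 lower than cDC2 (29.3% and 26.7% of all genes). Hsd17b7 (3.67 ± 0.18, adjusted p = 1.25e-11), Scd1 (2.81 ± 0.29, adjusted p = 2.44e-07) and Scd2 (1.51 ± 0.09, adjusted p = 9.67e-11) were again higher, and Srebf2 was the member that was lower (-1.93 ± 0.08, adjusted p = 1.94e-12). Srebf2 was at 258 to 272 CPM in cDC1, 381 to 403 CPM in cDC2 and 126.2 to 376 CPM in pDC, above the 111.7 to 118.3 CPM of C9a.MEF in every spleen library. Scaling by totals gave 4 members higher and 2 lower than in cDC2 in place of 7 and 1, and 2 were lower without cDC2 replicate 3 or PIP replicate 4. With each library left out in turn, 5 to 6 were higher than in cDC2 in place of 7.

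SII cells had less of most members than pDC. In C9a.SII 16 were lower and 3 higher (19.7% and 18.4% of all genes), and in hCD2.SII 17 were lower and 1 higher (17.7% and 15.2%). Idi1 was at 27.7, 58.7, 69.7, 76.4 and 93.9 CPM in pDC, and lower by -2.82 ± 0.34 in C9a.SII (adjusted p = 6.66e-05) and by -3.63 ± 0.53 in hCD2.SII (adjusted p = 0.000594). Dhcr7 was at 24.5 to 52.5 CPM in pDC, and lower by -2.63 ± 0.32 (adjusted p = 7.93e-05) and -2.82 ± 0.41 (adjusted p = 0.000566). Fasn was higher in C9a.SII by 1.48 ± 0.28 (adjusted p = 0.00147), with 151.8 to 168 CPM against 39.7 to 96.4 CPM. The pDC libraries ranged widely, with sterol enzyme sums of 349 to 878 CPM. Leaving out hCD2.SII replicate 2 or 3 left 8 or 7 lower in place of 17. Without hCD2.SII replicate 1 or 2 or pDC replicate 3 there were 0 higher in place of 1, and without pDC replicate 5 there were 2.

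Among the splenic subsets themselves, Fads2 set cDC1 apart from cDC2. It was at 47.5, 284 and 170 CPM in cDC1, at 5.86, 7.22 and 6.09 CPM in cDC2 and at 48.96, 57.1, 56.3, 75.7 and 94.4 CPM in pDC. Every cDC1 library was at least 6 times every cDC2 library, although the cDC1 libraries differed among themselves by almost as much. The difference was 4.70 ± 0.84 (adjusted p = 0.009), and cDC2 was lower than pDC by -3.30 ± 0.35 (adjusted p = 4.92e-05). Fads1 followed, with 25.2, 32.1 and 22.4 CPM in cDC1 against 8.85, 10.5 and 11.7 CPM in cDC2 (1.36 ± 0.19, adjusted p = 1.86e-06), as did Scd1 at 3.00 to 4.84 CPM against 0.817 to 1.65 CPM (1.78 ± 0.42, adjusted p = 0.000941). The calls of Fads1 and Scd1 were lost in a fit over all groups (0.92 and 1.34), which gave 1 member higher and 8 lower in cDC1. In all, 3 members were higher and 1 lower in cDC1 than in cDC2 (24.1% and 10.7% of all genes), the lower one being Mvd, whose call was lost without cDC1 replicate 2 (-0.90), and 3 were lower without cDC1 replicate 1 or cDC2 replicate 2.

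Summed sterol enzymes were 254 to 272 CPM in cDC1, 327 to 343 CPM in cDC2 and 349 to 878 CPM in pDC. Against pDC, cDC1 had 10 members lower and 0 higher (7.88% of all genes each), and cDC2 10 lower and 1 higher (23.2% and 11.7%). Dhcr7 was lower in both, by -2.38 ± 0.41 (adjusted p = 0.00153) in cDC1 and -1.82 ± 0.38 (adjusted p = 0.00506) in cDC2. Insig1 was at 17.95, 47.8, 51.6, 67.4 and 112.1 CPM in pDC and at 12.3 to 17.1 CPM in cDC1, and its call of -2.08 ± 0.54 was lost without any 1 of the cDC1 libraries (-2.01 to -2.21). Without cDC1 replicate 1, 2 or 3 the count of lower members against pDC was 1 in place of 10, and without pDC replicate 4 it was 6, while 1 was higher without cDC1 replicate 1 and 2 without pDC replicate 5. For cDC2 it was 4 in place of 10 without cDC2 replicate 1, 2 or 3 or pDC replicate 4, and the single higher member, Fasn, was lost without cDC2 replicate 1, 2 or 3 or pDC replicate 2. Members higher in cDC1 than in pDC at an unadjusted p under 0.05 numbered 2, and DESeq2 called 0. The 10 fibroblast markers summed to 28.1 to 48.4 CPM in cDC1, 5.78 to 31.05 CPM in cDC2 and 23.3 to 1204 CPM in pDC, and proliferation markers to 630 to 701 CPM, 1395 to 1695 CPM and 136.3 to 239 CPM. The pDC libraries thus had the highest sterol enzyme sums and the lowest proliferation markers of the 3 subsets. A list of 5 T and NK cell markers summed to 41.3 to 129.2 CPM in pDC, lowest and highest in the libraries with the lowest and highest sterol enzyme sums, against 1.24 to 4.64 CPM in cDC1 and cDC2. Of these, Cd8b1, which encodes the CD8 beta chain, was at 34.8 to 127.98 CPM in pDC, while Cd3e was at 0.62 to 4.35 CPM and Nkg7 at 0 in all 5 pDC libraries. Macrophage markers summed to 692 to 735 CPM in cDC2, 131.1 to 141.5 CPM in cDC1 and 121.9 to 176 CPM in pDC. The part of these markers in the differences was not tested.

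Other genes of the pathway were read from lists that hold none of the 29 members. Of 11 genes of LXR response, efflux and sterol storage, 6 were higher and 0 lower than MEFs in PIB, 5 higher and 1 lower in PIP, 0 higher and 2 lower in C9a.SII and 1 higher and 0 lower in hCD2.SII on day 9. Over all genes the shares higher and lower were 10.4% and 11.4% in PIB, 15.2% and 14.5% in PIP, 10.5% and 10.9% in C9a.SII and 10.8% and 8.41% in hCD2.SII, so that 1 of 11 in hCD2.SII is near the share of all genes. The efflux transporter Abcg1 rose by 4.26 ± 0.06 in PIP (adjusted p = 1.73e-18) and 2.61 ± 0.19 in PIB (adjusted p = 1.61e-06), and Abca1 by 2.68 ± 0.08 in PIP (adjusted p = 1.44e-12). Mylip, a ubiquitin ligase induced by LXR, rose in PIB by 2.40 ± 0.06 (adjusted p = 2.64e-12). Ch25h, the cholesterol 25-hydroxylase, fell in PIP by 3.23 on the log2 scale (adjusted p = 4e-10), and Nr1h3, which encodes LXR alpha, fell in C9a.SII by 1.78 on the log2 scale (adjusted p = 0.00237). In hCD2.SII the gene that rose was Mylip (1.63 ± 0.13, adjusted p = 0.000143).

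Of 9 further genes of sterol control, 4 were higher and 1 lower in PIP, 0 and 0 in PIB, and 1 and 0 in each SII group, and against the same shares of all genes the single genes called in PIP as lower and in the SII groups as higher are near the background. In PIP the higher ones included the endoplasmic reticulum proteins Erlin2 (1.58 ± 0.05, adjusted p = 1.03e-13) and Erlin1 (1.32 ± 0.08, adjusted p = 2.01e-10), and the lower one was Scap (-1.05 ± 0.05, adjusted p = 2.13e-11), the SREBP escort protein that the Insig1 protein binds. Of 20 further enzymes, 2 were higher and 1 lower in PIB, 4 and 0 in PIP, 0 and 2 in C9a.SII and 3 and 2 in hCD2.SII, counts mostly near those shares of all genes. Acsl5, a long-chain acyl-CoA synthetase, rose in PIP (1.98 ± 0.07, adjusted p = 1.42e-13) and PIB (1.75 ± 0.19, adjusted p = 4.61e-05). Acat2, the cytosolic thiolase that supplies Hmgcs1, fell in PIB by 1.11 on the log2 scale (adjusted p = 8.72e-07), in C9a.SII by 1.097 (adjusted p = 5.66e-05) and in hCD2.SII by 1.34 (adjusted p = 0.0207).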

How the data were processed

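RNA of about 5000 sorted cells a library was made into stranded total RNA libraries with 13 to 14 PCR cycles, per the labels' protocols. The table deposited by the authors holds raw read counts per Ensembl identifier, and the submitters' processing notes name mm10, STAR 2.7.9a and Salmon 1.10.1. The counting tool, gene annotation version and use of strand are not given in the sources used here, so overlapping genes and close paralogues such as Scd1 and Scd2 are uncertain. Symbols were matched for 52029 of 57010 identifiers, and identifiers without a symbol stayed in the fits and held 5.98% to 32.1% of a library's counts. The most counted of them alone held 4.38% to 30.1%, and a high share of it lowers every other CPM of a library.

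Libraries were grouped by their labels. Each comparison was fitted on its own groups over all genes with edgeR 4.0.16 (TMM scaling, low-count filter by group, robust quasi-likelihood F test, R 4.3.3) and Benjamini-Hochberg adjustment, and the script was tested on simulated data. A call needed an adjusted p under 0.05 and at least a 2-fold change, and the standard error is the log2 fold change divided by the square root of F. Alternatives were DESeq2 1.42.0 (size factors, Wald test), no low-count filter, no fold minimum, a replicate block, 1 fit over all 41 groups, each library left out and, chosen after seeing the data, scaling by total counts. Of 266 pairs of libraries within groups, none agreed within sampling noise. All same-numbered pairs correlated over 0.1 in hCD2.SII day 9 against hCD2.MEF only, where not every library correlated best with its own number.

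The members and lists were chosen with earlier results of these data known. Values of each library were given for members called the same way in at least 3 of the 4 day 9 comparisons with MEFs, for Insig1, Srebf1, Srebf2, Scd1 and Scd2, and for up to 4 members with the largest change elsewhere, and other members were named after their values were seen.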

Additional observations from a re-analysis of the deposited data

Results flagged for a closer look

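In groups of 4 to 10 libraries, the lowest or highest value of a member was compared with the others, and in 10 groups of values, 7.58% of those compared, 1 library stood apart. Chance flags about 1 in 20 such groups. In the double positive group of C9a.SII on day 3, replicate 2, whose Ptprc was at 1.52 CPM against its CD45 label, was at 25.6 CPM of Idi1 against 5.98 to 8.44 CPM, and at 15.6 CPM of Elovl6 against 5.76 to 6.95 CPM. In PIP cells of day 6, replicate 4 was at 14.1 CPM of Fads2 against 4.21 to 4.91 CPM and at 11.5 CPM of Scd1 against 5.59 to 6.28 CPM, and replicate 1 had 1357 CPM over all 29 members against 1215 to 1235 CPM. In PIB cells of day 9, replicate 2 was at 12.1 CPM of Fads2 against 4.52 to 5.24 CPM, and replicate 1 at 39.3 CPM of Srebf1 against 51.5 to 55.2 CPM. Srebf1 was at 39.2 CPM in pDC replicate 1 against 85.3 to 99.2 CPM in the other pDC libraries. Insig1 was at 12.5 CPM in hCD2.SII day 3 replicate 2 against 16.6 to 17.3 CPM. The Idi1 level of 17.2 CPM in PIP day 9 replicate 1 stood apart only because the others all lay at 18.1 CPM.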

How the results depend on the processing

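Of 179 called member values none changed direction under any alternative run, and 79 lost the call under at least 1: 50 with the replicate block, 31 without the low-count filter, 19 in 1 fit over all groups, 14 with DESeq2's Wald test, 13 with scaling by totals, 2 with DESeq2's size factors and 65 with some library left out. Counts of members called below are higher and lower. Scaling by totals moved the median of all genes by over 0.1 in several comparisons (from 0.02 to -0.21 in PIB of day 3 and from 0.05 to -0.18 in PIP of day 9). It gave 5 lower in PIB of day 3, 1 lower in PIB and 2 lower in PIP from day 3 to day 9, 6 lower for PIB against PIP, 4 higher and 2 lower for PIP against cDC2, and 1 higher for cDC1 against pDC.

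With no fold minimum, counts against MEFs were 2 and 15 in PIB, 4 and 13 in PIP, 1 higher in C9a.SII, and 3 and 18 in hCD2.SII on day 3, and 2 and 23 in PIB, 8 and 14 in PIP, 1 and 22 in C9a.SII, and 1 higher in hCD2.SII on day 9. From day 3 to day 9 they were 1 and 17 in PIB, 7 and 2 in PIP, and 3 lower in hCD2.SII. Against the reporter sort they were 1 lower in PIB and 19 lower in hCD2.SII. They were 3 and 20 for PIB against PIP, 3 and 10 for PIB against C9a.SII, 15 and 2 for PIP against C9a.SII, 11 lower for PIB against cDC1, 8 lower for PIP against cDC2, 11 lower for cDC1 against cDC2, 8 lower for C9a.MEF against hCD2.MEF, and 1 higher for the difference of the SII effect between the lines. Shares of all genes without a fold minimum are not given, so these counts cannot be read as an excess.

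A single fit over all groups gave 1 lower in PIB, 0 and 0 in PIP and 3 lower in hCD2.SII from day 3 to day 9, 2 higher for PIB against C9a.SII, 3 higher for hCD2.SII against pDC, 1 and 8 for cDC1 against cDC2, 2 higher for cDC1 against pDC and 6 lower for cDC2 against pDC. DESeq2's Wald test gave 1 lower in PIB and 2 lower in hCD2.SII from day 3 to day 9, 2 lower for PIP against cDC2, 3 higher for hCD2.SII against pDC, 3 lower for cDC1 against cDC2, and 1 higher for the difference between the lines, and DESeq2's size factors gave 1 higher for cDC1 against pDC. Without the low-count filter there were 4 lower in PIB of day 3, 1 lower in PIB and 2 lower in hCD2.SII from day 3 to day 9, 2 and 0 for PIB against C9a.SII, 3 and 10 for hCD2.SII against pDC, 3 lower for cDC1 against cDC2, 5 lower for cDC1 against pDC and 4 lower for cDC2 against pDC.

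The replicate block left 11 lower in place of 14 in hCD2.SII of day 9 against MEFs. Same-numbered libraries correlated at only 0.11 to 0.22 there, and not every library correlated best with its own number. The labels give replicate numbers only, so whether equal numbers mark pairs is not known in any comparison. In the others the block gave 0 lower in PIP and in hCD2.SII from day 3 to day 9, and 4 lower in hCD2.SII against the reporter sort. It gave 2 and 0 for PIB against C9a.SII and 2 lower for PIP against cDC2. For hCD2.SII against pDC it gave 2 and 5, for cDC1 against pDC 1 and 2, and for cDC2 against pDC 2 and 5. Every library correlated best with its own number in PIP from day 3 to day 9 and in PIB against cDC1.

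With each library left out in turn, counts ranged from 1 to 2 higher and 3 to 7 lower in PIP, 5 to 8 lower in C9a.SII and 0 to 1 higher in hCD2.SII on day 3. On day 9 they ranged from 10 to 17 lower in hCD2.SII against MEFs and from 5 to 6 higher for PIP against cDC2. From day 3 to day 9 they ranged from 2 to 6 lower in PIB, 1 to 2 higher and 0 to 2 lower in PIP and 0 to 8 lower in hCD2.SII. They ranged from 5 to 16 lower in hCD2.SII against the reporter sort, 1 to 2 higher and 0 to 1 lower for PIB against C9a.SII, 1 to 2 lower for PIP against cDC2, 0 to 2 higher and 7 to 17 lower for hCD2.SII against pDC, 0 to 3 lower for cDC1 against cDC2, 0 to 2 higher and 1 to 15 lower for cDC1 against pDC, 0 to 1 higher and 4 to 11 lower for cDC2 against pDC, and 0 to 5 higher for the difference between the lines. The cause of these changes was not tested. Depth limits the shallow libraries: 3 counts were 2.62 CPM in the shallowest library and 0.274 CPM in the median one.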
